A study of Homo sapiens with 12 samples.

Results

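The cytosolic ribosomal protein genes encode the protein subunits of the small (40S) and large (60S) subunits of the ribosome, and 84 of them were described in NCIH838 lung cancer cells with and without MIB1. Members were the protein-coding genes of GENCODE v44 with a symbol of RPL or RPS and a number, with an optional A, X, L or L1, together with *RPLP0*, *RPLP1*, *RPLP2* and *RPSA*, and all 84 were found among the 58302 rows of the count table. They comprised 31 genes of the 40S subunit, 46 genes of the 60S subunit and 7 paralogs whose symbols end in L or L1. The rule reads symbols and gene types, not levels.

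The cells were MIB1-iKO cells, a clonal derivative of NCIH838 that carries a guide RNA against *MIB1*, which encodes an E3 ubiquitin ligase. Doxycycline (Dox) switches on Cas9 in these cells. BMP receptors were first blocked in all cells for 3 days with the inhibitor LDN at 50 nmol/L, with Dox at 0.5 μg/mL (MIB1 KO) or without it (MIB1 WT). BMP4 at 10 ng/mL was then given to all 4 groups for 24 hours, with LDN still present in the BMP-off groups and replaced by DMSO in the BMP-on groups. There were 3 libraries in each of the 4 groups. Every KO library and no WT library came from cells given Dox, so that an effect of Dox or of Cas9 cannot be told apart from that of MIB1 loss. Nothing states that replicates of a group came from separate cultures, and p-values therefore measure the spread between these libraries, which may be technical.

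Libraries held between 19124010 and 29498000 counts. *MIB1* lay between 31.0 and 34.4 CPM (counts scaled to the library's size) in the 6 KO libraries and between 144 and 176 CPM in the 6 WT libraries. Epithelial markers were uneven. The keratin *KRT18* was between 71.1 and 85.4 RPKM (reads scaled to the library's size and the gene's length). *KRT7* was between 30.3 and 64.7 RPKM and *KRT8* between 21.8 and 43.2 RPKM. *EPCAM* was between 2.53 and 5.08 RPKM, *CDH1* between 1.13 and 1.95 RPKM and *KRT19* at most 0.078 RPKM. The lung lineage factor *NKX2-1* was at most 0.01 RPKM and the leukocyte marker *PTPRC* was at 0. The fibroblast marker *COL1A1* was between 1.77 and 6.25 RPKM, whereas *COL1A2*, *DCN* and *PDGFRB* were at most 0.26 RPKM. One library stood apart, KO BMP-off replicate 2, in which GC-rich genes were low, as described with the GC trends.

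A ribosome needs its protein subunits in balanced amounts, and each is usually made from a single gene that every dividing cell expresses. Transcripts of these genes typically begin with a C followed by a run of pyrimidines, the 5′ terminal oligopyrimidine (TOP) motif, through which mTORC1 and the RNA-binding protein LARP1 control their translation. RNA-seq does not measure translation. Several subunits also act outside the ribosome, as when RPL5 and RPL11 bind 5S rRNA and restrain MDM2 and thereby raise p53. Many members have processed pseudogenes, intronless copies of their mRNA scattered over the genome, which makes short reads from them hard to place.

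The TOP motif was looked for in RefSeq start sites of GRCh38.p14, as a C at the listed start on the transcribed strand followed by at least 4 bases that are each C or T. A start site was listed for 62 of the 77 members other than the paralogs, and 46 of these (74.2%) had the motif at 1 or more starts. Over all 27305 genes with a listed start, 1404 (5.14%) had it. The motif was present in 17 of 21 other translation genes that are known for TOP mRNAs (81.0%), in 6 of 69 mitochondrial ribosomal protein genes (8.70%) and in 5 of 61 ribosome biogenesis factors (8.20%). Of the 5 paralogs with a listed start, 1 had it. A match describes the letters at a listed start only, and its absence from the other 16 members says nothing of their transcripts in these cells.

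The following windows hold 10 bases before the listed start and 20 bases from the start on, written 5′ to 3′ on the transcribed strand, with the pyrimidine run that begins at the start in capitals. *RPL21* and *RPL29* are shown because they were the members called below, and *RPL11*, *RPS19* and *RPLP0* because they represent the well-known members.
RPL21: ccgcctctttCCTTTCggccggaaccgcca
RPL29: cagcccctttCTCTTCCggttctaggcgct
RPL11: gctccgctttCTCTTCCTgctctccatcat
RPS19: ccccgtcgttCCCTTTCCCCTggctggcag
RPLP0: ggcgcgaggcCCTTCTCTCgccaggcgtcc
These lie at chr13:27251548-27251577 (plus strand), chr3:51995876-51995905 (minus strand), chr1:23691796-23691825 (plus strand), chr19:41860245-41860274 (plus strand) and chr12:120201092-120201121 (minus strand). The runs were 6, 7, 8, 11 and 9 bases long. *RPL11* and *RPS19* each had 2 listed starts and carried the motif at 1 of them, the one shown. Each window reaches into the 5′ untranslated region of its gene.

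The next windows show paralogs and, where a start with the motif was listed, their parent genes, to compare how they begin.
RPL22: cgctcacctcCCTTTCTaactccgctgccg
RPL22L1: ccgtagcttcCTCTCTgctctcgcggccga
RPS27: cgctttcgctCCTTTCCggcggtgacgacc
RPS27L: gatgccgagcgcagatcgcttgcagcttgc
RPL26: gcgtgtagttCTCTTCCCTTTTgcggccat
RPL26L1: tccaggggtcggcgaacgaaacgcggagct
RPL10: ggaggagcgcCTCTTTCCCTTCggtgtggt
RPL10L: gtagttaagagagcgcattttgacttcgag
RPL7L1: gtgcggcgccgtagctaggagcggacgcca
Both *RPL22* (chr1:6199576-6199605, minus strand) and *RPL22L1* (chr3:170870176-170870205, minus strand) carried the motif. *RPS27* (chr1:153990752-153990781, plus strand) and *RPL26* (chr17:8383174-8383203, minus strand) carried it, and their paralogs *RPS27L* (chr15:63157458-63157487, minus strand) and *RPL26L1* (chr5:172958719-172958748, plus strand) did not. *RPL10* (chrX:154398367-154398396, plus strand) carried it at 1 of its 3 listed starts, the one shown, and *RPL10L* (chr14:46651762-46651791, minus strand) did not. *RPL7L1* (chr6:42879606-42879635, plus strand), shown without its parent, did not carry it either.

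Levels differed widely between members. On the RPKM scale, which is per length, the mean over the 12 libraries ran from 0.50 for *RPS10* to 1204 for *RPL11* among the 77 members other than the paralogs, a 2429-fold range around a median of 68.2. In all, 33 of these were above 100 RPKM and 11 were below 10 RPKM. The high levels included those of *RPL11* (1204 RPKM), *RPS16* (662 RPKM), *RPL8* (628 RPKM) and *RPL30* (609 RPKM). The 5 lowest of all members were *RPL10L* (0.0091 RPKM), *RPL3L* (0.29 RPKM), *RPS10* (0.50 RPKM), *RPS3A* (0.79 RPKM) and *RPS27* (1.15 RPKM). *RPS10*, *RPS3A* and *RPS27* encode proteins of the 40S subunit, and they averaged 11.9, 21.4 and 19.7 counts per library.

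To describe how uniquely a short read can be placed on each member, the coding sequence of its canonical transcript was divided into every overlapping window of 50 bases, the read length, and each window was searched for letter by letter on both strands of chromosomes 1 to 22, X and Y outside the gene. More than 50% of the windows were found elsewhere for 37 of the 77 members other than the paralogs, with a median share of 48.5%, and the share was 100% for 8 of them. Those 8 were *RPL21*, *RPL36A*, *RPL39*, *RPL41*, *RPS10*, *RPS26*, *RPS27* and *RPS28*.

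The level fell with this share. The 19 members with at most 20% of windows found elsewhere had a median of 319 RPKM and ranged from 38.1 (*RPL37*) to 1204 RPKM (*RPL11*). The 26 members with over 20% and up to 60% had a median of 72.8 RPKM, and the 32 members with over 60% had a median of 17.2 RPKM and a range from 0.50 (*RPS10*) to 333 RPKM (*RPL13A*). All 11 members below 10 RPKM were in the last class. Across the 77 genes, which share the libraries and are not independent replicates, Spearman's rho between share and level was -0.76. *RPL39*, at 88.8 RPKM with a share of 100%, shows that a high share did not always go with a low level. How the authors' counting treated reads that match several places is not given in the sources used here, so the levels of members with high shares are uncertain and their order should not be read as an order of transcript abundance.

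**Figure D1:**
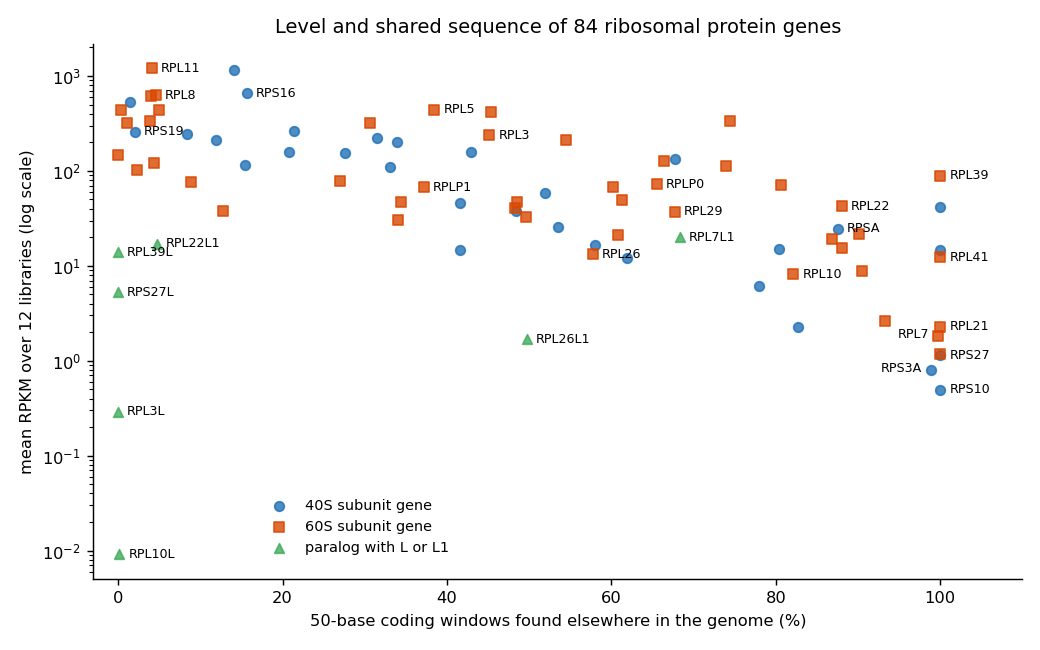
Mean RPKM over the 12 libraries (log scale) of each of the 84 members against the percentage of its 50-base coding windows that occur letter for letter elsewhere in the genome, with 40S genes as circles, 60S genes as squares and paralogs as triangles. Apart from the paralogs, the members below 10 RPKM all lie at the right, above 60%, and *RPL11* lies at the upper left.

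The pseudogenes themselves were in the count table. It held 1599 rows for pseudogenes named after ribosomal proteins, of which 1114 had at least 1 count, and together they took between 0.185% and 0.206% of the counts of a library. *RPL21* had 133 such rows, *RPSA* 74 and *RPL29* 33. Pseudogenes of *RPL3* held 4046 counts per library beside 8378 for *RPL3* itself, and those of *RPL21* held 25 beside 59.8.

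Members together took a small and even share of each library. It was 1.67% ± 0.092 in WT BMP-off, 1.66% ± 0.066 in WT BMP-on, 1.63% ± 0.066 in KO BMP-off and 1.71% ± 0.015 in KO BMP-on (SD, n = 3 each). Single libraries lay between 1.56% (KO BMP-off replicate 2) and 1.75% (WT BMP-off replicate 2), and all 4 groups overlapped except that the KO BMP-on libraries (1.70% to 1.72%) were all above the KO BMP-off libraries (1.56% to 1.68%). An exact permutation test of 3 against 3 libraries cannot go below p = 0.10, and the shares were not tested. The 40S genes took 0.65% ± 0.044, 0.64% ± 0.029, 0.62% ± 0.031 and 0.66% ± 0.0059 of the counts in the same order of groups, and the 60S genes 1.01% ± 0.049, 1.01% ± 0.037, 0.99% ± 0.036 and 1.03% ± 0.0094. Both subunits moved together between libraries, and WT BMP-off replicate 1 and KO BMP-off replicate 2 were the lowest for each. How reads that match several places were counted is not given, so the sizes of these shares are as uncertain as the members' levels. Since these are shares of a library's counts, a rise in members cannot be told apart from a fall in other transcripts. They do not show the number of cells or the total RNA per cell.

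**Figure D2:**
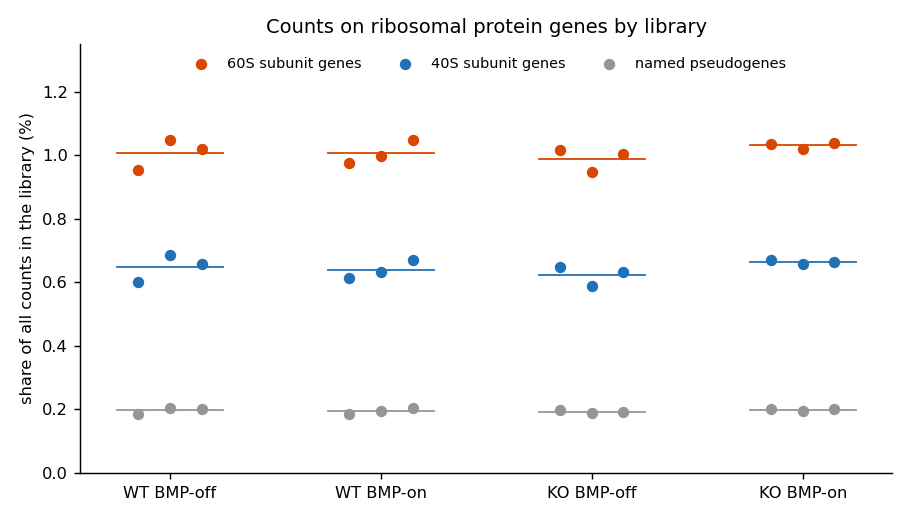
Percentage of all counts in each library that fell on 60S genes, 40S genes and their named pseudogenes, with 1 point per library and a line at the mean of the 3 libraries of a group. The 60S genes stay between 0.95% and 1.05%, the 40S genes between 0.59% and 0.69% and the pseudogenes near 0.2% in all 4 groups.

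Fold changes were tested for 83 members with edgeR's quasi-likelihood test over all 12 libraries, with p-values adjusted by the Benjamini-Hochberg method over 17188 genes in each comparison and a call at an adjusted p of at most 0.05. *RPL10L*, which is expressed chiefly in the testis, had 1 count in each of 2 libraries and 0 in the other 10, and was not tested. The comparisons were the response to BMP in WT cells, the response to BMP in KO cells, KO against WT cells under either BMP condition, and the interaction, which is the response in KO cells minus that in WT cells. They share libraries and are therefore not independent of each other.

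In WT cells, no member was called after BMP, while 3.92% of all genes tested were. The lowest adjusted p among members was 0.19, for *RPS6*, the subunit phosphorylated by S6 kinase. It went from 122 ± 4.27 RPKM with BMP-off to 111 ± 3.60 RPKM with BMP-on (SD, n = 3 each), and its log2 fold change was -0.12 ± 0.046 (SE). The members' median log2 fold change was -0.0049, beside 0.0016 for all genes, with a range from -0.24 (*RPL36A*) to 0.43 (*RPS3A*). At an unadjusted p under 0.05 there were 5 members (6.02%), against 15.3% of all genes. For 76 of the 83 members (91.6%) the 95% confidence interval lay within -0.5 and 0.5 on the log2 scale, which holds for 65.1% of all genes. It also held for 98.7% of the mitochondrial ribosomal protein genes tested, 100% of the other TOP genes and 97.3% of the biogenesis factors. The median SE was 0.073 for members and 0.10 for all genes.

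In KO cells, 2 members were called after BMP (2.41% of 83) and both rose, *RPL21* and *RPL29*, while 22.0% of all genes were called, 11.1% higher and 10.9% lower. With the further limit of an absolute log2 fold change of 1 or more, no member and 1.66% of all genes were called. Both encode proteins of the 60S subunit. *RPL21* spans 27251362 to 27256691 of chromosome 13 (GRCh38, plus strand). It was at 2.06, 1.73 and 1.68 CPM in the KO BMP-off libraries and at 3.41, 2.30 and 2.49 CPM in the KO BMP-on libraries. The KO groups did not overlap, and the highest value came from KO BMP-on replicate 1. In WT cells it was at 1.94, 2.61 and 2.59 CPM with BMP-off and at 2.87, 2.43 and 2.44 CPM with BMP-on, which overlap. Its log2 fold change was 0.59 ± 0.18 in KO cells (SE; adjusted p = 0.030 by edgeR) and 0.12 ± 0.18 in WT cells (adjusted p = 0.81 by edgeR).

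*RPL21* rested on 40 to 89 counts per library, every 50-base window of its coding sequence occurs elsewhere, and 133 pseudogenes carry its name. When the counts of those pseudogenes were added to it, an alternative chosen after the data were seen, the log2 fold change was 0.39 and the adjusted p was 0.071 by edgeR. Without KO BMP-on replicate 1 it was 0.38 with an adjusted p of 0.21. Whether reads from its copies took part in the difference was not tested.

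*RPL29* spans 51993522 to 51995895 of chromosome 3 (GRCh38, minus strand). It was at 48.2, 33.3 and 56.7 CPM in the KO BMP-off libraries and at 73.3, 64.3 and 62.1 CPM in the KO BMP-on libraries. KO BMP-off replicate 2 was the lowest of all 12 libraries, and the KO groups did not overlap. With BMP-off, WT libraries were at 51.1, 56.7 and 60.3 CPM, and with BMP-on they were at 61.0, 58.7 and 59.7 CPM. Its log2 fold change was 0.53 ± 0.15 in KO cells (SE; adjusted p = 0.031 by edgeR) and 0.095 ± 0.15 in WT cells (adjusted p = 0.83 by edgeR). Without KO BMP-on replicate 1 it was 0.45 with an adjusted p of 0.11. Without KO BMP-off replicate 2 it was 0.34 and still called (adjusted p = 0.0040 by edgeR), and with a correction for GC it was 0.39 (adjusted p = 0.015 by edgeR). Of its coding windows, 67.8% occur elsewhere.

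**Figure D3:**
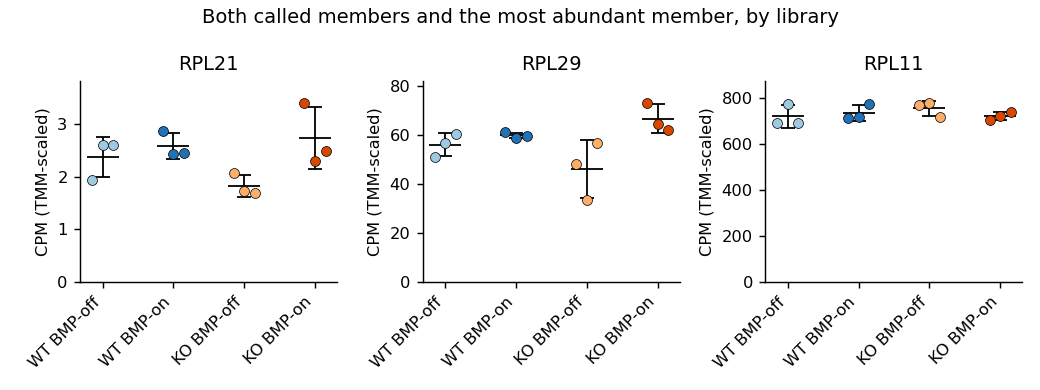
TMM-scaled CPM of *RPL21*, *RPL29* and, for scale, *RPL11* in each library, with group means and SD as bars (n = 3). *RPL21* and *RPL29* are lowest in the KO BMP-off group, with *RPL29* at 33.3 CPM in replicate 2, whereas *RPL11* stays near one level.

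The response of neither gene was shown to differ between KO and WT cells. The interaction was 0.47 ± 0.26 for *RPL21* and 0.44 ± 0.22 for *RPL29* on the log2 scale (SE), with adjusted p-values of 0.52 and 0.49 by edgeR, and it was 0.26 for *RPL21* without KO BMP-on replicate 1 and 0.25 for *RPL29* without KO BMP-off replicate 2. In KO against WT cells with BMP-off, *RPL21* differed by -0.36 ± 0.19 and *RPL29* by -0.28 ± 0.15 (adjusted p = 0.53 and 0.56 by edgeR). The difference of *RPL29* was -0.096 without KO BMP-off replicate 2 and -0.45 without replicate 3 of that group, and that of *RPL21* was -0.19 with pseudogene counts added.

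None of the other members passed the test after BMP in KO cells. Their log2 fold changes ran from -0.36 (*RPS10*) to 0.78 (*RPLP1*), with a median of 0.016 over all 83 beside 0.0056 for all genes. At an unadjusted p under 0.05 there were 16 members (19.3%), against 35.5% of all genes. The 95% confidence interval lay within -0.5 and 0.5 for 69 members (83.1%), against 56.4% of all genes. This held for 87.0% of the mitochondrial ribosomal protein genes tested, 93.3% of the other TOP genes and 89.2% of the biogenesis factors. Of the 40S genes 20 had a positive and 11 a negative fold change, and of the 60S genes 25 and 21. The 19 members with at most 20% of their coding windows elsewhere, a class formed after the data were seen, had a median of 0.099, with 13 positive values, and none was called. Their transcripts had a median of 52.2% GC, and their median log2 fold change was 0.017 with a correction for GC and 0.024 without KO BMP-off replicate 2.

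*RPLP1*, whose protein forms the stalk of the 60S subunit with those of *RPLP0* and *RPLP2*, had a higher point estimate than either called member without passing the test. It was at 67.9, 29.1 and 71.5 CPM with BMP-off and at 102, 92.6 and 94.3 CPM with BMP-on in KO cells, and its log2 fold change was 0.78 ± 0.29 (SE; adjusted p = 0.084 by edgeR). KO BMP-off replicate 2 was again the lowest of all libraries, and without it the log2 fold change was 0.47 (adjusted p = 0.12 by edgeR). *RPLP2* had a log2 fold change of 0.23 ± 0.11 in the same comparison (adjusted p = 0.14 by edgeR), with 406 ± 65.3 RPKM in KO BMP-off and 466 ± 9.58 RPKM in KO BMP-on. The log2 fold change was 0.094 without KO BMP-off replicate 2, 0.33 without replicate 3 of that group (adjusted p = 0.016 by edgeR) and 0.061 with the correction for GC. *RPLP0* was at 72.3 ± 3.48 and 73.3 ± 3.11 RPKM in these groups.

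*RPS9* and *RPL6* came next to the threshold and are named after their values were seen. *RPS9* had a log2 fold change of 0.30 ± 0.10 (adjusted p = 0.053 by edgeR), from 188, 143 and 195 CPM with BMP-off to 218, 222 and 207 CPM with BMP-on. *RPL6* had one of -0.23 ± 0.084 (adjusted p = 0.064 by edgeR), from 23.3, 23.2 and 19.3 CPM to 18.2, 18.4 and 19.7 CPM. *RPS9* passed the threshold under 10 of 28 alternative analyses, but its log2 fold change was 0.17 without KO BMP-off replicate 2 and 0.051 with the correction for GC (adjusted p = 0.44 by edgeR). *RPL6* passed under 7 of 28, with -0.32 without KO BMP-off replicate 3 (adjusted p = 0.0051 by edgeR), and was at -0.12 with pseudogene counts added (adjusted p = 0.32 by edgeR).

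Between KO and WT cells in the BMP-on state, no member was called and 3.67% of all genes were. The members' median log2 fold change was 0.017, beside 0.0025 for all genes. There were 6 members at an unadjusted p under 0.05 (7.23%), against 13.8% of all genes. The difference farthest from 0 was that of *RPS7*, at -0.54 ± 0.19 (SE; adjusted p = 0.17 by edgeR). It lay at 2.87, 2.60 and 3.23 CPM in WT and at 2.15, 2.56 and 1.36 CPM in KO libraries, which do not overlap, and it held between 35 and 90 counts per library. Without KO BMP-on replicate 3 the difference was -0.32 (adjusted p = 0.52 by edgeR), and with pseudogene counts added it was -0.13 (adjusted p = 0.66 by edgeR). *RPL6* had the second lowest adjusted p, 0.18 by edgeR, at -0.23 ± 0.084, and was at -0.11 with pseudogene counts added. The 95% confidence interval lay within -0.5 and 0.5 for 75 of 83 members (90.4%), against 66.5% of all genes. This also held for 98.7% of the mitochondrial ribosomal protein genes tested, 100% of the other TOP genes and 97.3% of the biogenesis factors.

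Between KO and WT cells in the BMP-off state, again no member was called, beside 0.0407% of all genes. The median was -0.040 for members and -0.0086 for all genes, with 29 positive and 54 negative values. There were 5 members at an unadjusted p under 0.05 (6.02%), against 10.2% of all genes. *RPS26*, which had the lowest adjusted p, was at 15.4, 16.0 and 13.9 CPM in WT and at 20.3, 20.9 and 16.0 CPM in KO libraries, with a log2 fold change of 0.34 ± 0.10 (SE; adjusted p = 0.36 by edgeR). All of its coding windows occur elsewhere in the genome.

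For the interaction, no member and 0.0931% of all genes were called. The members' median was 0.047 beside 0.012 for all genes. At an unadjusted p under 0.05 there were 2 members (2.41%), against 10.6% of all genes. *RPL6* had the lowest adjusted p, at 0.27 by edgeR, with an interaction of -0.37 ± 0.12 (SE), which was -0.47 without KO BMP-off replicate 3 (adjusted p = 0.040 by edgeR) and -0.19 with pseudogene counts added.

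**Figure D4:**
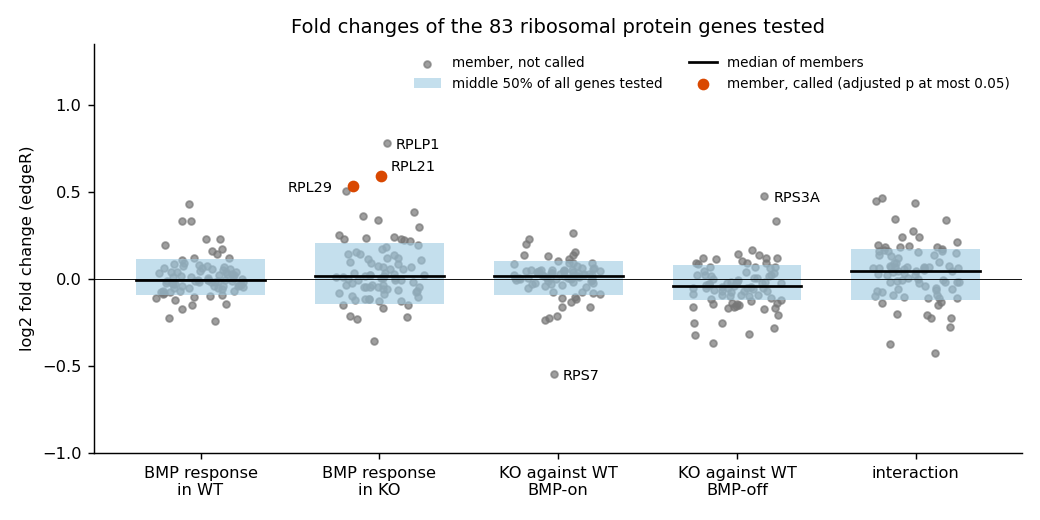
Log2 fold change of each of the 83 members tested (points) in the 5 comparisons, with the median of members as a black line and the middle 50% of all genes tested as a blue band. Most members lie in or near the band, *RPL21* and *RPL29* are the 2 called, and *RPLP1* (0.78), *RPS7* (-0.54) and *RPS3A* (0.48) lie farthest from 0 in their comparisons without being called.

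*RPL11* was at 1188 ± 72.4 RPKM in WT BMP-off, 1199 ± 54.3 RPKM in WT BMP-on, 1259 ± 78.9 RPKM in KO BMP-off and 1172 ± 30.9 RPKM in KO BMP-on (SD, n = 3 each), and the 95% confidence intervals of its fold changes between groups reached no further than -0.17 and 0.18 on the log2 scale. For its interaction the interval ran from -0.25 to 0.061. *RPS19*, the gene most often affected in Diamond-Blackfan anemia, was at 257 ± 22.3, 264 ± 17.8, 244 ± 29.3 and 272 ± 10.9 RPKM. *RPL5* was at 435 ± 14.1, 425 ± 29.3, 479 ± 50.0 and 420 ± 22.1 RPKM, and its log2 fold change after BMP in KO cells was -0.15 ± 0.064 (SE; adjusted p = 0.10 by edgeR), and -0.23 without KO BMP-off replicate 3 (adjusted p = 0.0046 by edgeR).

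*RPSA*, which encodes a 40S subunit also known as the laminin receptor, was at 24.7 ± 0.43, 25.3 ± 0.89, 23.9 ± 1.23 and 24.4 ± 0.79 RPKM in the same order of groups. *RPS27A*, which encodes a subunit fused to ubiquitin, was at 15.3 ± 0.94, 14.2 ± 0.68, 15.5 ± 1.11 and 14.8 ± 0.55 RPKM. *RPL41*, which encodes the smallest subunit, was at 12.1 ± 1.68, 12.3 ± 1.44, 13.4 ± 1.58 and 11.2 ± 0.062 RPKM. None of these was called in any comparison.

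Of the 7 paralogs, 6 were tested and none was called in any comparison. *RPL7L1* was highest, at 19.5 ± 0.83, 20.2 ± 1.56, 20.5 ± 1.69 and 19.9 ± 0.24 RPKM over the 4 groups, above its parent *RPL7*, which averaged 1.81 RPKM and has 99.7% of its coding windows elsewhere. *RPL22L1* averaged 17.2 RPKM beside 42.6 RPKM for *RPL22*, and *RPL39L* 14 RPKM beside 88.8 RPKM for *RPL39*. *RPS27L*, a known p53 target, averaged 5.29 RPKM and stayed between 5.20 and 5.42 RPKM in its group means, while its parent *RPS27* averaged 1.15 RPKM. None of the coding windows of *RPS27L* and all of those of *RPS27* occur elsewhere. *RPL26L1* averaged 1.68 RPKM beside 13.2 RPKM for *RPL26*, and *RPL3L*, a gene of heart and skeletal muscle, 0.29 RPKM beside 237 RPKM for *RPL3*.

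GC content was a property along which members spread. Their canonical transcripts ran from 39.9% to 63.6% GC, with a median of 47.6%, close to the 48.3% of the other genes tested. They were shorter, with a median of 827 bases beside 2644 bases. Libraries differed in how counts depended on GC. Over the other genes tested, the slope of a gene's log2 level, taken relative to its mean over the libraries, was -0.25 per 10 points of GC in KO BMP-off replicate 2, and lay between -0.095 and 0.13 in the other 11 libraries. Slopes on transcript length were small in every library, between -0.035 and 0.026 per doubling of length.

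Members showed a GC trend like that of the other genes in KO BMP-off replicate 2 and in the comparisons that use it. In KO BMP-off replicate 2, the median log2 deviation of the 41 GC-rich members minus that of the 42 GC-poor members was -0.23, and in the other 11 libraries it was between -0.072 and 0.082. For the response to BMP in KO cells, Spearman's rho between log2 fold change and GC was 0.50 over the 83 members and 0.46 over the other genes. The median log2 fold change was 0.099 in GC-rich and -0.039 in GC-poor members. With BMP-off, in KO against WT cells, rho was -0.55 over members and -0.40 over the other genes, with medians of -0.092 and 0.013. For the interaction, rho was 0.40 over members and 0.42 over the other genes, and for the WT response it was 0.20 over each. Between KO and WT cells in the BMP-on state, rho was 0.064 over members and 0.19 over the other genes, the class medians were 0.017 and 0.020, and rho over members was -0.28 after the correction for GC. These correlations are across genes that share libraries and are given as descriptions.

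Without KO BMP-off replicate 2, rho was 0.37 over members in the KO response and -0.21 in KO against WT cells with BMP-off, and the class medians were 0.037 and -0.019 in the former. With a correction for GC, the medians were 0.022 and -0.0054 and rho over members was -0.026. For length, rho over members lay between -0.10 and 0.083 in all 5 comparisons. In the response of KO cells to BMP, the correction for GC called 8 members, 3 higher and 5 lower, beside 25.1% of all genes, and both *RPL21* and *RPL29* were among them. Corrections for GC and length together called 9 members, 2 higher and 7 lower, beside 26.4% of all genes. The split of called members thus differed with the treatment of GC, and also with other choices given below, whereas the median stayed close to 0.

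**Figure D5:**
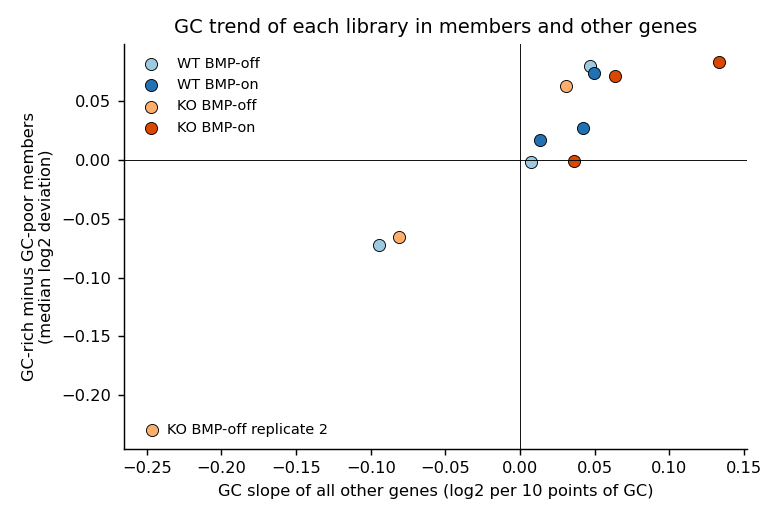
For each library, the difference in median log2 deviation between the 41 GC-rich and 42 GC-poor members against the slope of log2 level on GC over all other genes tested, with both axes in log2 units and groups in color. KO BMP-off replicate 2 lies at the lower left (-0.25 and -0.23), and members and other genes order the libraries in a similar way.

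Other genes of the translation machinery were counted in the same way. Of 31 further genes known for TOP mRNAs, mainly translation factors, 30 were tested, and 2 (6.67%) were called after BMP in KO cells, beside 22.0% of all genes, and none in the other comparisons. *EIF3G*, a subunit of the initiation factor eIF3, rose from 188 ± 23 to 221 ± 11.1 CPM (log2 fold change 0.23 ± 0.072, adjusted p = 0.033 by edgeR). *EIF4B*, a cofactor of the eIF4A helicase, fell from 87.8 ± 1.07 to 79.3 ± 2.42 CPM (-0.15 ± 0.047, adjusted p = 0.034 by edgeR).

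Of 74 ribosome biogenesis factors, 15 (20.3%) were called after BMP in KO cells, 9 higher and 6 lower, which is near the 22.0% of all genes, and none in the other comparisons. *NHP2*, of the H/ACA particles that guide pseudouridylation, rose by 0.41 ± 0.079 and *EFL1*, a GTPase of late 60S maturation, fell by 0.37 ± 0.068 on the log2 scale (adjusted p = 0.0014 and 0.00088 by edgeR). Of 78 mitochondrial ribosomal proteins, which belong to a different ribosome, 77 were tested, and 8 (10.4%) were called in KO cells, 5 higher and 3 lower. After BMP in WT cells 2 of the 77 (2.60%) were called, both lower, beside 3.92% of all genes. *MRPL11* fell by 0.24 ± 0.046 in KO and by 0.18 ± 0.046 in WT cells on the log2 scale. *MRPS6* fell by 0.23 ± 0.060 in WT cells, and *MRPS12* rose by 0.52 ± 0.085 in KO cells. The medians of the 3 lists after BMP in KO cells were -0.0053, -0.026 and -0.0032 in the order given, beside 0.016 for the members. The values of these lists and their named genes in KO cells use KO BMP-off replicate 2, in which GC-rich genes were low. They were not examined without that library or with the correction for GC.

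The members also share their place in the genome with other genes. They lay on 21 chromosomes, with 12 on chromosome 19 and 9 on chromosome 3, and 28 of them held 60 small nucleolar RNA genes within their bounds. Small nucleolar RNAs guide the modification of ribosomal RNA.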

How the data were processed

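RNA-seq of 12 libraries was analysed, with groups taken from the sample labels. The authors discarded reads from ribosomal RNA, used GSNAP to align what was left to GRCh38, and obtained exon counts per RefSeq gene from HTSeqGenie. Whether counting used strand, and which of 2 library kits a sample had, is not given in the sources used here. The deposited table holds whole-number counts without normalization, and a second deposited table holds RPKM values as the authors normalized them. RPKM served for levels and alternatives.

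Symbols, transcripts, GC content and length came from GENCODE v44 (Ensembl canonical transcripts). Of 58302 rows, 770 had no symbol there, and these stayed in the fits. Tests on counts used edgeR 4.0.16 under R 4.3.3, in a robust quasi-likelihood fit over 4 groups of 3 with TMM scaling. In all, 17188 genes passed the default filter. The call was an adjusted p of at most 0.05 (Benjamini-Hochberg over all genes tested), and the authors' limit of 1 on the log2 fold change was an alternative. GC and length corrections used a loess trend per library with a span of 0.4. Other alternatives used DESeq2 1.42.0 and limma 3.58.1. CPM are TMM-scaled. The procedure was tested on simulated counts drawn without a GC trend or an outlying library, so that run cannot show how it handles either.

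Members named were the 5 highest and 5 lowest in RPKM, called members, paralogs with their parents and 10 well-known subunits, besides those marked as chosen after their values were seen and the members at the ends of ranges or with the lowest p. One member that the rule names is not reported here. Members and gene lists were chosen with earlier results of these data known. The lists came from general knowledge.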

Additional observations from a re-analysis of the deposited data

How the results depend on the processing

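The median log2 fold change of the members moved by less than the spread between libraries under all alternatives run, and lay between -0.058 and 0.066 over the 5 comparisons. The number of members called after BMP in KO cells (2) was less stable. It was 6 with DESeq2, 4 with limma-voom and quantile normalization, with library-size scaling, with upper-quartile scaling or with at least 10 counts in every library, 9 without a filter, 0 with only the groups compared, 1 with log2(RPKM + 1), 8 with the GC correction, 5 with the length correction, 9 with both, 6 with the GC correction and the replicate block, 1 with pseudogene counts added and 0 with a limit of 1 on the absolute log2 fold change. Leaving out 1 library gave 0 (without KO BMP-on replicate 1) to 17 (without KO BMP-off replicate 3, 8 higher and 9 lower), and 1 without KO BMP-off replicate 2. *RPL29* was called under 24 and *RPL21* under 21 of 28 alternatives, and over all 28 their log2 fold changes were 0.34 to 0.69 and 0.36 to 0.68. Beside these counts, apart from that with the limit on the fold change (1.66%), the share of all genes called ran from 12.4% (without a filter) to 26.4% (GC and length) and, with 1 library left out, from 13.2% (0 members) to 30.4% (17 members). Filters and corrections change which genes are tested or their scale, and otherwise the cause was not tested.

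Where no member was called, the corrections for GC and length together called 3 in the WT response (*RPL13*, *RPL27* and *RPS29*), 2 in KO against WT with BMP-on (*RPS12* and *RPS29*), 1 with BMP-off (*RPS26*) and 1 in the interaction (*RPL6*), beside 10.6%, 8.91%, 0.919% and 2.11% of all genes. With only the groups compared 1 was called with BMP-on (*RPS28*, beside 7.39%), and without a filter 1 with BMP-off (*RPS26*, beside 0.673%). Leaving out 1 library gave 0 to 1 with BMP-off (*RPS26*) and 0 to 1 in the interaction (*RPL6*), each 1 without KO BMP-off replicate 3. The WT response of *RPL21* ran from -0.012 (without WT BMP-off replicate 1, a change of sign) to 0.20 when 1 library was left out. These genes outside the naming rule were named after their values were seen. As a sum of RPKM in place of counts, the members' share was 3.55% in WT BMP-off, 3.56% in WT BMP-on, 3.53% in KO BMP-off and 3.64% in KO BMP-on.

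The replicate numbers gave no pairing, as deviations correlated above 0.1 in 2 of 18 same-numbered pairs. With a replicate block, the same 2 members were called after BMP in KO cells and 0 in each other comparison. Low counts limit *RPL3L*, *RPS10*, *RPS27* and *RPS3A*, which averaged 11.9 to 21.4 counts and whose log2 fold changes had SE of 0.26 to 0.44 in the KO response.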
